A study of Mus musculus with 8 samples.

Results

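The unfolded protein response and the endoplasmic reticulum (ER) membrane protein Wfs1 were followed in the striatum of 8 mice through 10 genes: Ern1, Eif2ak3, Atf6, Atf4, Xbp1, Ddit3, Trib3, Herpud1, Sel1l and Wfs1. Every probe set that the platform annotation assigned to exactly 1 of these genes was taken, which gave 30 probe sets of the 45037 tested and 10 of the 18193 genes measured. Wfs1, measured by 1 probe set, fell in the mutant striatum by 0.63 on the log2 scale after adjustment for sex. It passed the test in 3 of the 8 fits that left out 1 mouse. None of the 29 probe sets of the other 9 genes passed the test.

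The mutant group was 4 CHL2 mice, which model Huntington's disease: 150 CAG repeats taken from the human gene's exon 1 were knocked in to the endogenous Htt gene, here on both copies (Q150/Q150). The controls were 4 wild-type mice. All 8 were 22 months old C57BL/6 X CBA F1 hybrids. Mutants 141, 153 and 154 were female and 191 was male, while wild-type mouse 161 was female and 170, 180 and 200 were male. Each mouse gave 1 Affymetrix array of total striatal RNA, hybridised after biotin labelling. Because the repeat sits in the endogenous gene, it is present in every cell of the animal, and only a homozygous group of a single age was compared. The question was how striatal gene expression of aged animals differs with the repeat.

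The ER folds secreted and membrane proteins, and 3 sensors in its membrane respond when unfolded protein builds up. IRE1, encoded by Ern1, splices the Xbp1 message; PERK, encoded by Eif2ak3, phosphorylates a translation factor and so favours translation of Atf4; ATF6 travels to the Golgi, where proteases release its transcription factor part. Together they raise chaperones and ER-associated degradation, and under lasting stress Ddit3 and Trib3, which are linked to cell death. Wfs1, the gene mutated in Wolfram syndrome, encodes an ER membrane protein that affects ER calcium and restrains ER stress signalling. The arrays read total transcript per probe set, so splicing of Xbp1, translation of Atf4 and cleavage of ATF6 were not measured.

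Striatal markers were well detected. Of 22 measured medium spiny neuron markers 17 fell in the mutants and 0 rose, where 9.27% of all genes were called (4.54% higher and 4.73% lower), with a median log2 difference of -1.02, and their mean log2 level was 9.98 to 10.25 in mutants and 11.09 to 11.21 in wild-type mice. Ppp1r1b, the phosphatase regulator DARPP-32, differed by -1.01, the dopamine receptor Drd1 by -1.24 and Drd2 by -1.42. In bulk tissue, fewer cells of a type and less RNA per cell cannot be told apart. Wild-type mouse 170 stood apart in RNA quality: its 3' minus 5' log2 difference was 1.37 for the Gapdh controls against 0.32 to 0.43 in the other 7 mice, and 2.65 for beta-actin against 1.23 to 1.51. Mutant minus wild type was -0.22 for Gapdh (two-sided exact permutation test, p = 0.83) and -0.32 for beta-actin (p = 0.486), in a design whose smallest possible p is 0.0286. Without mouse 170 the Gapdh difference was 0.04.

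Promoters show which response elements sit beside these genes. RefSeq promoter windows of build GRCm38.p6, each holding 250 bases before and 50 after a gene's start, were found for 9 of the 10 genes. They were searched on both strands for the ER stress element ERSE (CCAAT, any 9 bases, CCACG), the related ERSE-II (ATTGG, any 1 base, CCACG), the XBP1 element UPRE (TGACGTGG), the ATF4 and CEBP element CARE (TGATGCAA) and the CCAAT box (CCAAT) alone. ERSE and ERSE-II each contain CCAAT on one strand or the other, so each of their matches is also a CCAAT box. Among the 10 genes Herpud1 alone held an ERSE-II, found in 0.0365% of 32851 windows, and it also held a CARE, found in 0.895%. No searched ERSE or UPRE lay in their windows (0.119% and 0.676% of all windows), and 6 held a CCAAT box (37.4% of all windows): Atf4, Ddit3, Eif2ak3, Herpud1, Sel1l and Wfs1. The Herpud1 window is shown because it carries both stress elements, in capitals (first CARE, read here on its reverse strand, then ERSE-II), and the Wfs1 window because Wfs1 is the gene that fell, with its CCAAT box, on the reverse strand, in capitals. Herpud1 is the stretch chr8:94386179-94386428 on the plus strand and Wfs1 is chr5:36988983-36989232 on the minus strand, each written 5' to 3' along the gene, 250 bases up to the start.
Herpud1: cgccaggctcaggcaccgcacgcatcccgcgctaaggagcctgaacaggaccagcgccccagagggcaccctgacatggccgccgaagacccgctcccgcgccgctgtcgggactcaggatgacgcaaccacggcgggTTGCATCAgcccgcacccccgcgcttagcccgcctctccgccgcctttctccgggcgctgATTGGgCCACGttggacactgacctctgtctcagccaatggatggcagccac
Wfs1: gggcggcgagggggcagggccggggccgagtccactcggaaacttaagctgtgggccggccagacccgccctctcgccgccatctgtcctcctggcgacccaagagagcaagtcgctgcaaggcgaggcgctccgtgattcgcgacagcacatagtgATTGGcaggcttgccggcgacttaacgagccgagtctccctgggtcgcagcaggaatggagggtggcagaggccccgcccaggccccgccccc

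A probe set was said to rise or fall when its adjusted p (limma, genotype and sex as terms, Benjamini-Hochberg over all 45037 probe sets) was under 0.05. By this rule 1 of the 30 probe sets was called, the single one of Wfs1, against 6.7% of all probe sets (3.26% higher and 3.44% lower). The groups did not overlap in 3 of the 30, for Wfs1, Atf6 and Herpud1, against 15.4% of all probe sets, and 4 had an unadjusted p under 0.05, for Wfs1, Atf6, Atf4 and Trib3, against 19.2%. Sex-adjusted log2 differences of mutants from wild type were above 0 in 13 (50.7% of all probe sets) and below 0 in 17 of the 30, with a median of -0.02, beside a median of 0.00307 over all probe sets. The 29 that were not called ran from -0.40 to 0.37. For the brightest probe set of each of the 9 uncalled genes, the 95% intervals together spanned 0.602-fold to 1.35-fold of the wild-type level. Of the 30, 8 had all 8 values under 5 on the log2 scale (32 on the linear scale), where RMA compresses differences, and 18 had none under 5. None was called for an interaction of genotype with sex, which was called for 0.0% of all probe sets, with 1 of the 30 and 4.04% of all at an unadjusted p under 0.05.

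**Figure D1:**
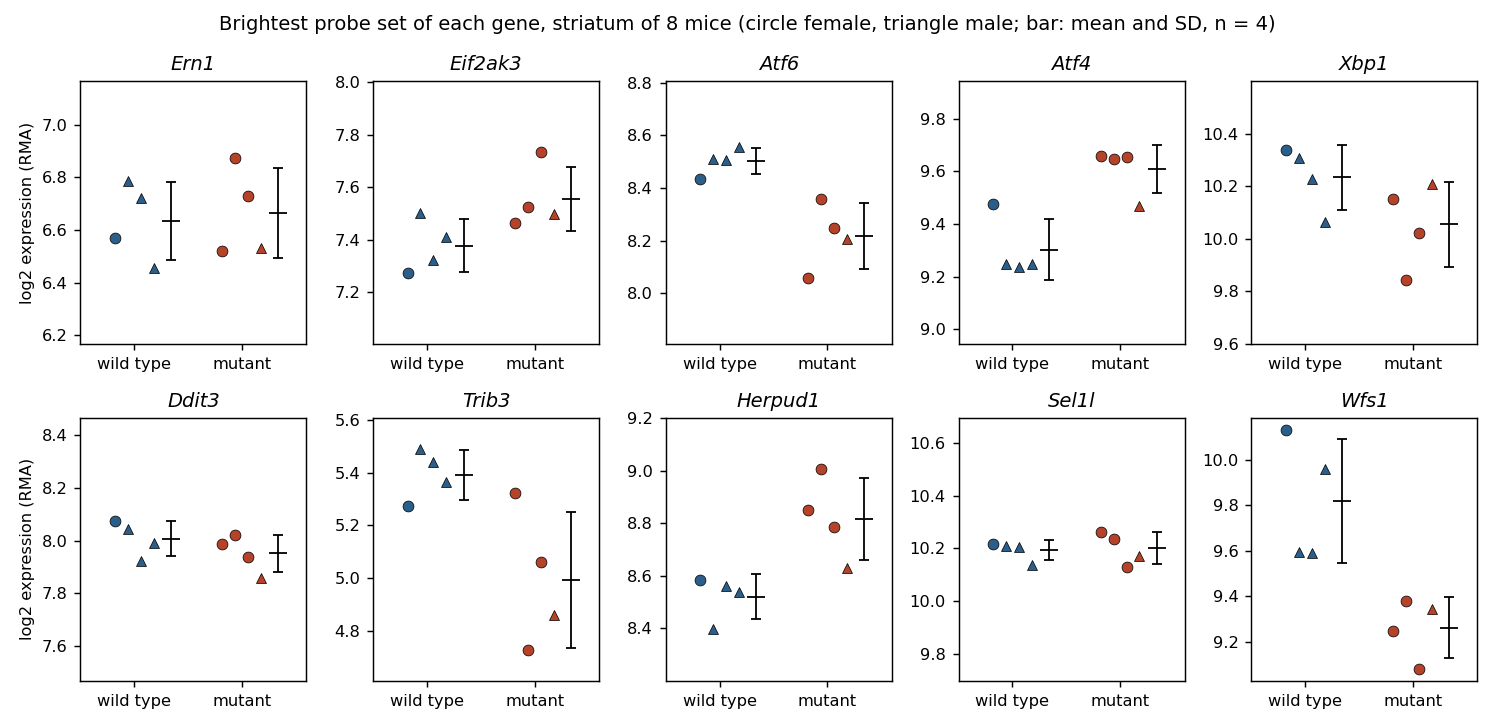
Log2 RMA expression (vertical axes, each spanning its own range) of the brightest probe set of each of the 10 genes in 4 wild-type and 4 mutant striata. Circles are females, triangles are males, and bars give the mean and SD of 4 mice. Wfs1 is the gene whose difference passed the test, its mutants lying between 9.08 and 9.38 and its wild-type mice between 9.59 and 10.13.

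Of the sensors, Ern1, the kinase and nuclease of the IRE1 arm, lay at log2 levels of 6.52, 6.87, 6.73 and 6.53 in mutants 141, 153, 154 and 191 and 6.57, 6.79, 6.72 and 6.46 in wild-type mice 161, 170, 180 and 200. The groups overlapped throughout, with a log2 difference of 0.01 (SE 0.13, adjusted p = 0.989). The other 4 Ern1 probe sets differed by -0.15 to 0.08, and 3 of them were under 5 in every mouse.

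Eif2ak3, which encodes PERK, lay at log2 levels of 7.46, 7.53, 7.73 and 7.50 in the mutants and 7.27, 7.50, 7.32 and 7.41 in the wild-type mice, in the same mouse order as for Ern1. Wild-type mouse 170 reached the range of the mutants. Mutant minus wild type came to 0.19 in log2 units (SE 0.10, adjusted p = 0.364). Both other Eif2ak3 probe sets were under 5 in all mice, with differences of -0.13 and -0.09.

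Atf6, the sensor that is itself a transcription factor precursor, lay at log2 levels of 8.06, 8.36, 8.25 and 8.21 in the mutants and 8.43, 8.51, 8.51 and 8.56 in the wild-type mice. Every mutant was below every wild-type mouse. The log2 difference of -0.27 (SE 0.10) had a 95% interval of -0.48 to -0.05 and did not pass the test after adjustment (adjusted p = 0.158). The other Atf6 probe sets differed by -0.18, with all 8 values under 5, and by -0.14. All 3 lay below 0 with all mice, but the last ran from -0.44 to 0.15 over the 8 fits that left out 1 mouse. On that probe set wild-type mouse 161, at 5.96, was the lowest of the 8. Its interaction of genotype with sex was 0.59 (limma, unadjusted p = 0.0345, adjusted p = 0.997).

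Atf4, the transcription factor of the PERK arm and of the wider integrated stress response, lay at log2 levels of 9.66, 9.65, 9.65 and 9.47 in the mutants and 9.47, 9.25, 9.24 and 9.25 in the wild-type mice. The 3 female mutants were highest, the 3 male wild-type mice were lowest, and the male mutant 191 and the female wild-type mouse 161 met at 9.47 between them. The fit therefore shared the spread between genotype, 0.20 (SE 0.08, adjusted p = 0.176), and sex, 0.21 higher in females (adjusted p = 0.54). Without a sex term the genotype difference was 0.31 (adjusted p = 0.0490) and passed the test. With the sex term it was 0.20 and passed under a floor at 5 (adjusted p = 0.0321). It also passed without moderation (adjusted p = 0.0073), where the difference was again 0.20 but the SE only 0.011. With the gene's probe sets averaged it was 0.12 and did not pass (adjusted p = 0.438). The other Atf4 probe sets differed by 0.01 and 0.14.

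Xbp1, the transcription factor whose message IRE1 splices, lay at log2 levels of 10.15, 9.84, 10.02 and 10.21 in the mutants and 10.34, 10.31, 10.23 and 10.06 in the wild-type mice. The groups overlapped, with mutants 141 and 191 above wild-type mouse 200. The log2 difference was -0.16 (SE 0.12, adjusted p = 0.545), and it ran from 0.0081 without mouse 161 to -0.33 without mouse 191. The other 3 Xbp1 probe sets differed by -0.18, -0.11 and 0.04.

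Ddit3, the transcription factor CHOP that is linked to cell death under lasting ER stress, lay at log2 levels of 7.99, 8.02, 7.94 and 7.86 in the mutants and 8.07, 8.04, 7.92 and 7.99 in the wild-type mice. The groups overlapped, with a log2 difference of -0.11 (95% interval -0.29 to 0.07, adjusted p = 0.554), and the second probe set differed by -0.12. On the first, the interval reaches no further up than 1.05-fold of the wild-type level, and on the second no further than 1.17-fold. Without a sex term the first differed by -0.06 (SE 0.07). On the second the mutant mean was the higher, 5.29 against 5.15, so the sign of its difference depended on the sex term. Its sex difference was 0.52, higher in females (adjusted p = 0.483). Over the fits that left out 1 mouse its genotype difference ran from -0.28 to 0.04.

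Trib3, a pseudokinase that CHOP and ATF4 induce, was dim, with log2 levels of 5.32, 4.73, 5.06 and 4.86 in the mutants and 5.27, 5.49, 5.44 and 5.36 in the wild-type mice. All mutants but 141 were below every wild-type mouse. The log2 difference was -0.40 (SE 0.15, adjusted p = 0.154). Without mouse 141 it was -0.48 and passed the test (adjusted p = 0.0449), the single fit of the 8 that left out 1 mouse in which it did, and without mouse 191 it was -0.24 (adjusted p = 0.699). The second Trib3 probe set, under 5 in all mice, differed by -0.21.

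Herpud1, an ER membrane protein that helps assemble the degradation machinery and whose promoter elements are printed above, lay at log2 levels of 8.85, 9.0, 8.78 and 8.63 in the mutants and 8.59, 8.40, 8.56 and 8.54 in the wild-type mice. Every mutant was above every wild-type mouse, with mutant 191 and wild-type mouse 161 closest. The log2 difference of 0.21 (SE 0.10) had a 95% interval of -0.0037 to 0.43 and did not pass the test (adjusted p = 0.270). Without mouse 161 it was 0.13 (adjusted p = 0.801). Without a sex term it was 0.30 with all mice and did not pass (adjusted p = 0.0775). Also without a sex term, it was 0.32 without mouse 161 (adjusted p = 0.106) and 0.36 without mouse 191, where it passed (adjusted p = 0.0400). The second probe set lay at 7.74, 7.55, 7.70 and 7.50 against 7.53, 7.34, 7.58 and 7.28, overlapping, with a difference of 0.11.

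Sel1l, the adaptor that holds the ER ubiquitin ligase complex together, was measured by 5 probe sets. The brightest lay at log2 levels of 10.26, 10.24, 10.13 and 10.17 in the mutants and 10.22, 10.21, 10.20 and 10.14 in the wild-type mice. The groups overlapped, with a difference of -0.01 (SE 0.08, adjusted p = 0.972).

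On the other Sel1l probe sets 1 array stood low. On 3 of these 4, wild-type mouse 170, which also stood apart in the 3' minus 5' controls, was the lowest of the 8 mice: 7.04 against 7.76 to 8.17, 6.71 against 7.29 to 7.66, and 4.86 against 6.07 to 6.53. On the brightest, mouse 170 was at 10.21, within the 10.13 to 10.26 of the other 7. The 3 log2 differences were 0.19, 0.28 and 0.37 with mouse 170 and 0.02, 0.16 and 0.16 without it, none of them called. Where the probes lie along the transcript, and the part of RNA quality in these values, was not tested. Over all 30 probe sets mouse 170 was the lowest of the 8 mice in 6, the highest in 7 and neither in 17.

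**Figure D2:**
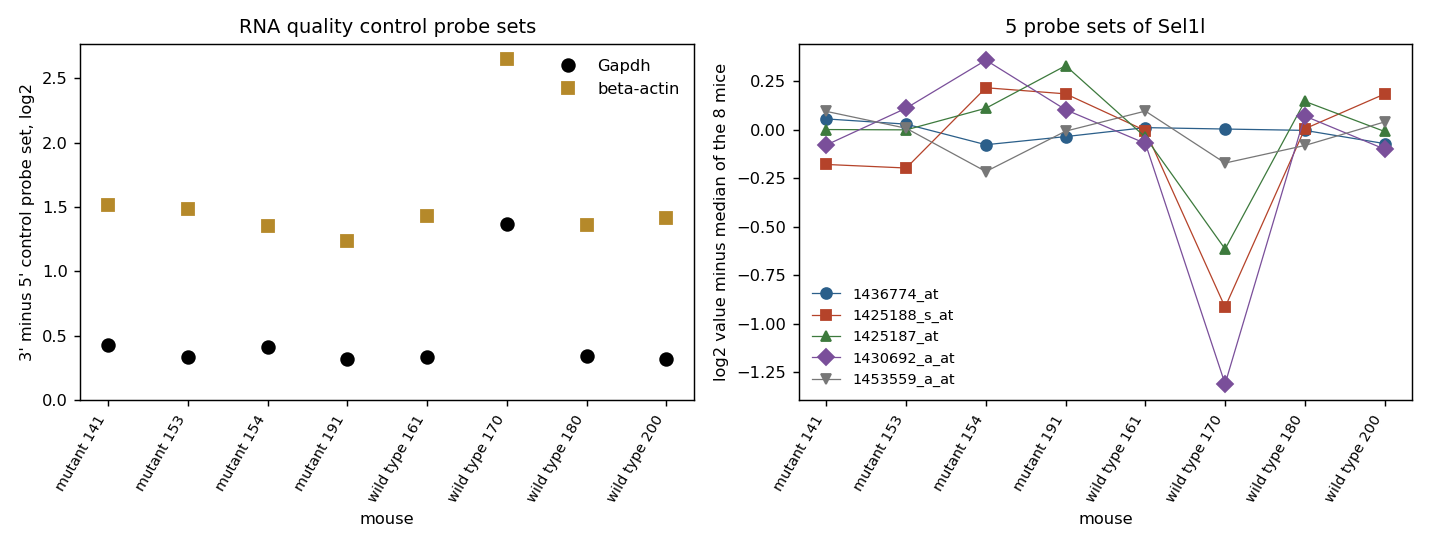
Left, log2 value of the 3' minus the 5' control probe set of Gapdh and of beta-actin in each mouse; right, the log2 value of 5 Sel1l probe sets minus the median of the 8 mice, lines joining the values of 1 probe set. Wild-type mouse 170 has the highest control differences (1.37 and 2.65) and low values on 3 Sel1l probe sets, while the brightest probe set (blue circles) is level across mice.

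Wfs1 was measured by 1 probe set, with log2 levels of 9.25, 9.38, 9.08 and 9.34 in the mutants and 10.13, 9.59, 9.59 and 9.96 in the wild-type mice. Every mutant was below every wild-type mouse, and the group means were 9.26 ± 0.13 and 9.82 ± 0.27 (SD, n = 4 each). Wfs1 fell by 0.63 on the log2 scale (SE 0.15, 95% interval -0.97 to -0.30), which is 1.55-fold lower, with a limma adjusted p of 0.0327. The wild-type mice split into a higher pair (161 and 200) and a lower pair (170 and 180). Without mouse 161, the female wild-type mouse, the sex-adjusted difference rests on males alone, 1 mutant against 3 wild type, and was -0.37 (adjusted p = 0.451). Without mouse 191 it rests on females, 3 mutants against 1 wild type, and was -0.90 (adjusted p = 0.0575). Without a sex term it was -0.45 without mouse 161 (adjusted p = 0.0473) and -0.56 with all mice (adjusted p = 0.0218). The call was also lost without mouse 141 (adjusted p = 0.0623), 154 (0.0524) or 200 (0.0662, difference -0.59), and held in 3 of the 8 fits that left out 1 mouse. The direction held in all 8.

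Wfs1 is found in neurons of several forebrain areas, so markers of the cells in the dissected tissue are given beside it. The fall of 17 of 22 medium spiny neuron markers is given above. Of 9 hippocampal and amygdalar neuron markers 1 fell and 0 rose, with a mean log2 level of 5.05 to 5.18 in mutants and 5.11 to 5.39 in wild-type mice. Of 12 cortical excitatory neuron markers 3 fell and 0 rose, with mean levels of 6.47 to 7.36 and 6.92 to 7.32. Slc17a7, the cortical vesicular glutamate transporter, varied widely within the groups, at 6.73, 6.47, 8.03 and 4.59 in mutants and 7.88, 6.15, 7.43 and 6.46 in wild-type mice, and did not pass the test (adjusted p = 0.0985), except without mouse 154 (-1.71, adjusted p = 0.0175). The part of these cell types in the Wfs1 difference was not tested.

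Counts in the other marker lists are read beside the 9.27% of all genes called. Of 10 astrocyte markers 1 rose and 0 fell, and Gfap, the astrocyte filament, differed by 0.48 (adjusted p = 0.0631), a call that changed in 7 of 20 alternatives. Of 10 microglial markers 0 passed in either direction, and Aif1 differed by -0.36 (adjusted p = 0.0906; -0.42 without mouse 180, adjusted p = 0.0351). Of 9 oligodendrocyte markers 1 rose and 1 fell, with the myelin gene Mbp at -0.13. Of 11 interneuron, 10 endothelial and mural, and 9 choroid plexus and ependyma markers 1 each fell and 0 rose. The choroid plexus transcript Ttr ran from 10.8 to 14.1 over the mice with no separation of the groups (adjusted p = 0.693).

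The 5 genes nearest to Wfs1 over the 8 mice were found among 9096 genes at or above the median level, by the root mean square difference between mean-centred log2 values. They were Kctd1 and Rbck1 (both 0.134), Camk2a (0.141), Chst1 (0.142) and Myh7 (0.142). All had lower mutant means, with log2 differences of -0.50, -0.66, -0.50, -0.56 and -0.54. Camk2a was not called (adjusted p = 0.0918), except without mouse 170 (adjusted p = 0.0130) and with array weights (adjusted p = 0.0341), and 2 of its 6 probe sets were called. The other 4 fell, and without mouse 161 none of them was called (adjusted p of 0.292, 0.0689, 0.0945 and 0.233 for Kctd1, Rbck1, Chst1 and Myh7). Without mouse 191 Rbck1, Chst1 and Myh7 lost their call too, while Kctd1 kept it. The likeness is a description over 8 arrays that share the group difference. The genes were picked for likeness to Wfs1 on these same arrays. Lower mutant means therefore follow from that choice, and the losses without mouse 161 or 191 are not evidence apart from Wfs1.

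**Figure D3:**
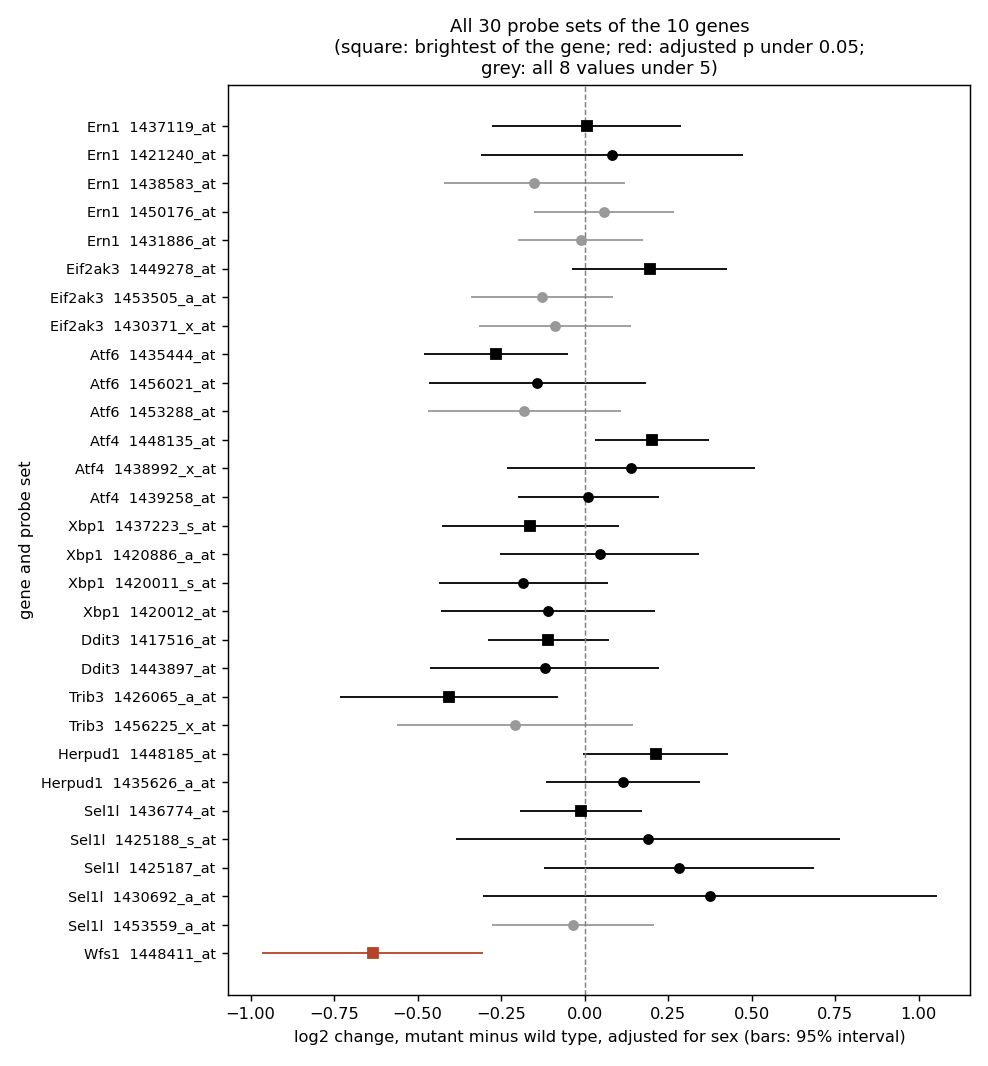
Sex-adjusted log2 difference of mutants from wild type (horizontal axis) of all 30 probe sets with 95% intervals. Squares mark the brightest probe set of each gene, red an adjusted p under 0.05, and grey probe sets with all 8 values under 5. Wfs1, at -0.63, is the single red point, and the other 29 lie between -0.40 and 0.37.

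The wider pathway was read from 7 gene lists holding 213 genes, of which 202 were measured, each by its brightest probe set. Among them 15 rose and 9 fell, 11.9% in all, against 9.27% of all 18193 genes (4.54% higher and 4.73% lower). The shares were 7.43% higher and 4.46% lower. The log2 difference was above 0 in 127 of the 202 (62.9%), against 51.2% of all genes, and the median was 0.07, against 0.0052. The groups did not overlap in 56 (27.7%), against 20.7% of all genes. The count fell when a mouse that balances the sexes was left out: 3 genes were called without mouse 161 (Gfpt1, Nfya and Ryr1) and 2 without mouse 191 (Ryr1 and Shmt2). With no sex term 26 were called without mouse 161 and 28 without mouse 191. Without mouse 180 the count was 15, and without mouse 200 it was 13. Of the 21 called pathway genes named below, Wfs1, Ssr1 and Srprb aside, 9 lost their call without moderation. When a gene's probe sets were averaged 8 lost it: Creb3l2, Mbtps1, Gfpt1, Ssr4, Edem1, Ube2g2, Atp1b1 and Atp2a2. Probe sets on the other side of 0 from the brightest were 1 of 4 for Shmt2 and 1 of 3 for Ssr4. They were 1 of 2 each for Fkbp14 and Edem1, 2 of 5 for Atp1b1 and 2 of 6 for Atp2a2.

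Among the 38 measured genes of the PERK arm and integrated stress response 2 rose and 1 fell, with a median log2 difference of 0.12. Shmt2, a mitochondrial serine enzyme, rose by 0.66 (1.58-fold, adjusted p = 0.00398). Its log2 levels were 6.74, 6.70, 6.79 and 7.10 in the mutants and 5.99, 6.39, 6.60 and 6.65 in the wild-type mice, without overlap. Atf5, a transcription factor relative of Atf4, rose by 0.44 (adjusted p = 0.0314), and its call was lost without mouse 141, 154, 161, 191 or 200 (adjusted p up to 0.386). Nupr1, a stress-induced nuclear protein, fell by 0.42 (adjusted p = 0.0214). Shmt2 was not called without mouse 161 (adjusted p = 0.102), nor Nupr1 without mouse 161 or 191 (up to 0.228). Without a sex term neither was called, Shmt2 at 0.43 (adjusted p = 0.106) and Nupr1 at -0.27 (adjusted p = 0.162). The ATF4 and CHOP targets named whatever their values did not pass: Asns, the asparagine synthetase, differed by 0.24 (adjusted p = 0.142), Chac1 by 0.02 and Ppp1r15a by -0.05. Atf3 was under 5 in all mice and differed by 0.01.

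Of the 12 genes of the ATF6 arm and its regulators 3 rose and 1 fell, with a median of 0.11. The subunits Nfya and Nfyc of NF-Y, the factor that binds the CCAAT box, rose by 0.88 (1.84-fold, adjusted p = 0.00254) and 0.51 (1.42-fold, adjusted p = 0.00675). Nfya lay at log2 levels of 7.25, 7.0, 7.35 and 7.41 in the mutants and 6.52, 6.31, 6.29 and 6.42 in the wild-type mice, and Nfyc between 9.25 and 9.37 against 8.74 and 8.89. Nfya was not called without mouse 191 (adjusted p = 0.0788), nor Nfyc without mouse 161 or 191 (up to 0.103). Neither pair of groups overlapped, and the third subunit, Nfyb, differed by 0.19 and was not called. Creb3l2, an ATF6 relative, rose by 0.49 (adjusted p = 0.0492) and Mbtps1, the Golgi protease that cuts ATF6 first, fell by 0.43 (adjusted p = 0.0441), each called in 1 of the 8 fits without a mouse, without 170 for Creb3l2 and without 154 for Mbtps1 (adjusted p up to 0.423 and 0.421). Atf6b, the close relative of Atf6, differed by -0.15 (adjusted p = 0.486).

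The IRE1 arm and XBP1 targets held 39 measured genes, of which 6 rose and 0 fell, with a median of 0.11. Sec23b, a coat protein of vesicles leaving the ER, lay between 8.83 and 8.89 in the mutants and 8.31 and 8.42 in the wild-type mice and rose by 0.53 (adjusted p = 0.00415). Ssr4, a subunit beside the ER translocon, rose by 0.53 (adjusted p = 0.0142). Ssr1, another subunit, and Srprb, a receptor subunit for the signal recognition particle, rose by 0.35 and 0.45. Ssr1 and Srprb were named after their values were seen, and neither was called without mouse 161 or without mouse 191. Gfpt1, the entry enzyme of the hexosamine pathway, rose by 0.58 (adjusted p = 0.00238) on its brightest probe set, while 4 of its 6 probe sets lay on the other side of 0. Edem1, which hands misfolded glycoproteins to degradation, rose by 0.42 (adjusted p = 0.0311), a call lost without mouse 154, 161, 180, 191 or 200 (adjusted p up to 0.317). Without mouse 191 Gfpt1 was not called (adjusted p = 0.0599), nor were Sec23b and Ssr4 without mouse 161 or 191 (up to 0.0794 and 0.210). Dnajb9, an ER co-chaperone and a classic XBP1 target, differed by 0.11 (adjusted p = 0.560).

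Of 42 ER chaperones and folding enzymes 1 rose and 1 fell, with a median of 0.01. Hspa5, the master chaperone BiP, lay at log2 levels of 10.82, 10.72, 10.64 and 10.96 in the mutants and 10.97, 10.47, 10.45 and 10.30 in the wild-type mice. Wild-type mouse 161 was the highest of the 8, and the groups overlapped. The log2 difference was 0.15 (95% interval -0.19 to 0.50, adjusted p = 0.686), and it ran from -0.24 without mouse 191 to 0.55 without mouse 161 (adjusted p = 0.0947). With no sex term and without mouse 161 Hspa5 was at 0.38 and just passed (adjusted p = 0.0499). Hsp90b1, the ER member of the HSP90 family, differed by -0.12 and Calr, the calcium-binding lectin chaperone, by -0.03. Fkbp14, an ER prolyl isomerase, rose by 0.84 (adjusted p = 0.00667). Uggt2, a glycoprotein folding sensor relative, fell by 0.58 (adjusted p = 0.0192), with 2 of its 8 values under 5. Both calls were lost without mouse 161 or 191 (adjusted p up to 0.137 and 0.309).

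ER-associated degradation held 42 measured genes, of which 3 rose and 2 fell, with a median of 0.10. Besides Edem1, Vcp, the ATPase that pulls proteins out of the membrane, rose by 0.38 (adjusted p = 0.0280) and Bcap31, an ER membrane sorting protein, by 0.38 (adjusted p = 0.0256), both calls lost without mouse 161, 180, 191 or 200 (adjusted p up to 0.277 and 0.308). Man1a, a mannosidase, fell by 0.52 (adjusted p = 0.0184) and Ube2g2, a ubiquitin-conjugating enzyme of the pathway, by 0.40 (adjusted p = 0.0395). Man1a was not called without mouse 161 or 191 (adjusted p up to 0.261), nor Ube2g2 without mouse 141, 154, 161, 180, 191 or 200 (up to 0.283). Syvn1, the ligase that Sel1l holds, differed by -0.01 (adjusted p = 0.984).

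Of 20 measured genes on the list of Wolfram gene partners and the ER calcium store 1 rose and 4 fell, Wfs1 among them, with a median of -0.22. Ryr1, a calcium release channel, lay at log2 levels of 4.14, 4.38, 4.71 and 4.55 in the mutants and 7.18, 7.53, 7.50 and 7.78 in the wild-type mice. Every mutant sat in the dim range under 5, so the size is uncertain. Ryr1 fell by 2.91 (adjusted p = 1.94e-05), with a difference of -2.39 when values under 5 were raised to 5 (adjusted p = 0.000175), and was called in all 8 fits without a mouse. Ryr3, a related channel, fell by 0.69 (adjusted p = 0.00332), a call lost without mouse 161 or 191 (adjusted p up to 0.0719). Atp2a2, the pump SERCA2 that fills the store, lay between 11.96 and 12.04 against 12.26 and 12.39 and fell by 0.36 (adjusted p = 0.0301), a call lost without mouse 141, 161, 180, 191 or 200 (adjusted p up to 0.270). Atp1b1, a sodium pump subunit, rose by 0.32 (adjusted p = 0.0418), a call that held in 1 of the 8 fits, without mouse 153 (adjusted p up to 0.343). Cisd2, the second Wolfram syndrome gene, differed by 0.32 and was not called (adjusted p = 0.0707), a call that changed in 5 of 20 alternatives. Among 15 ER stress linked cell death genes, Ddit3 and Trib3 included, 0 passed in either direction, with a median of 0.02. Over all genes 9.27% passed, so few calls would be looked for among 15, and 4 of the 15 were under 5 in every mouse.

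**Figure D4:**
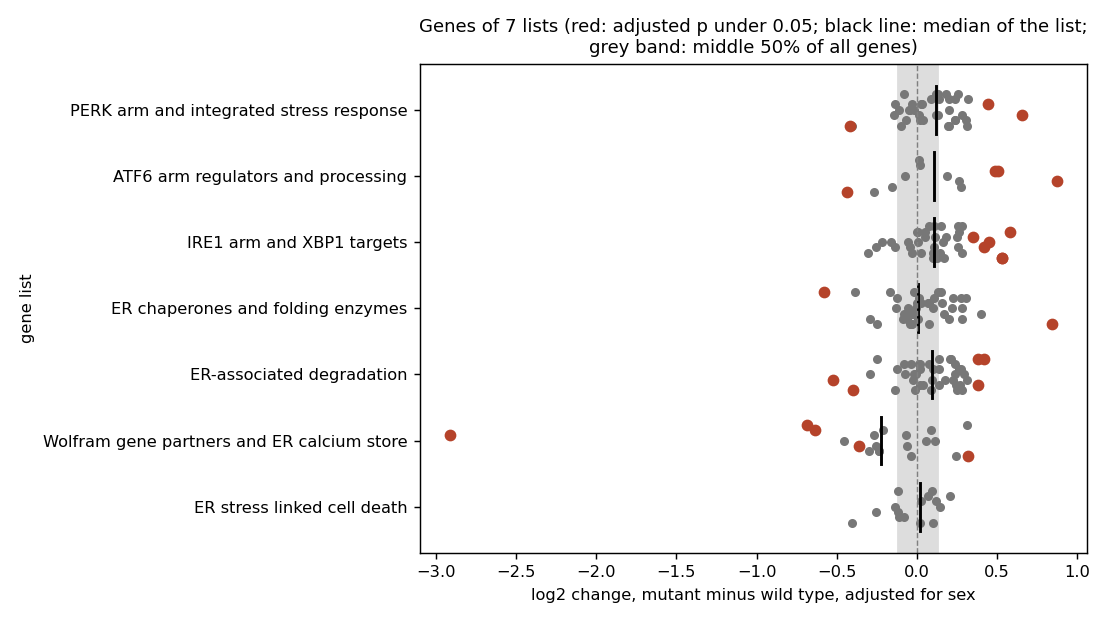
Sex-adjusted log2 difference of mutants from wild type (horizontal axis) of each measured gene of 7 lists (rows). Red points have an adjusted p under 0.05, black lines are list medians, and the grey band holds the middle 50% of all genes, from -0.12 to 0.13. Ryr1, at -2.91, lies far to the left in the list of Wolfram gene partners and the ER calcium store, whose median is -0.22.

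Genes that hold an ERSE could be read as a group because the motif, not the expression, chose them. ERSE matches of 5 chaperone and degradation genes are shown so that the fixed ends of the element, in capitals, can be compared; each is written on the strand that carries the motif, in GRCm38.p6, Hspa5 at chr2:34772025-34772043 (plus), Hsp90b1 at chr10:86705533-86705551 (plus, the nearer to the start of its 2 matches), Calr at chr8:84847075-84847093 (plus), Pdia6 at chr12:17266491-17266509 (plus) and Syvn1 at chr19:6046532-6046550 (plus).
Hspa5: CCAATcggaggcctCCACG
Hsp90b1: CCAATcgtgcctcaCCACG
Calr: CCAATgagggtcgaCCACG
Pdia6: CCAATgaaaggcggCCACG
Syvn1: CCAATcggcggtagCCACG

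Of the 37 genes with an ERSE in a window 20 were measured, and 10 of these stood on the lists above. Of the 20, 0 were called by limma, against 9.27% of all genes, and 2 had an unadjusted p under 0.05, against 24.3% of all genes. Their log2 differences ran from -0.37 to 0.30, with a median of -0.02. Among the 20, Acnat2, 4930402F11Rik, Tdrd9, Zfp57, Ptgdr2, Derl3 and Acacb had both group means under 5, where RMA compresses differences. Of 9 measured genes with an ERSE-II, Herpud1 among them, 1 was called: Nucb1, a Golgi calcium-binding protein named here after its value was seen, rose by 0.42 (adjusted p = 0.0365), a call that held in 2 of the 8 fits, without mouse 141 or 154 (adjusted p up to 0.321). The UPRE was matched by 143 measured genes, of which 11 rose and 5 fell, with 43 at an unadjusted p under 0.05. The CARE was matched by 116, of which 5 rose and 6 fell, with 22 at an unadjusted p under 0.05. Over all genes 4.54% rose, 4.73% fell and 24.3% had an unadjusted p under 0.05. A match describes letters in a window and not a site in use.

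**Figure D5:**
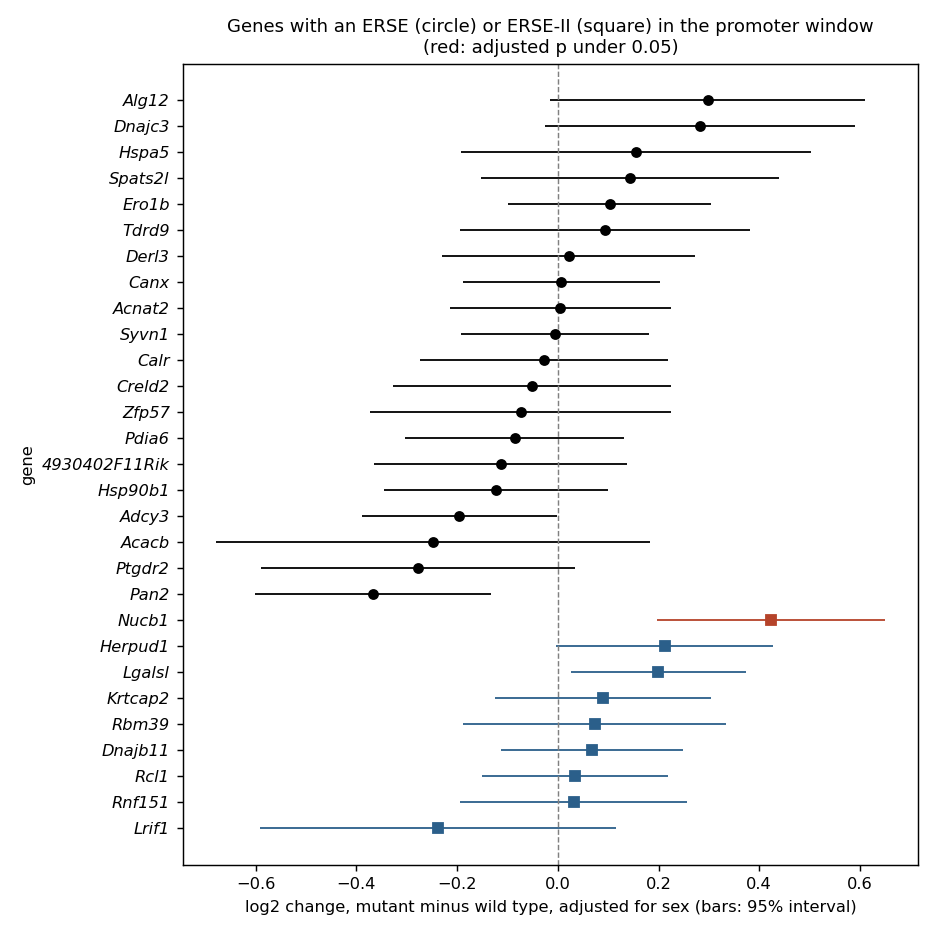
Sex-adjusted log2 difference of mutants from wild type (horizontal axis) with 95% intervals, of each measured gene with an ERSE (circles) or an ERSE-II (squares) in its promoter window. Nucb1, at 0.42, is the single red point, with an adjusted p under 0.05; the ERSE genes lie between -0.37 and 0.30.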

How the data were processed

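Total RNA from the striatum of 8 mice was measured on 8 arrays, 1 per mouse. The deposited table holds log2 values that the authors made with RMA and affy, per the submitters' processing notes. Software versions are not given in those notes. RMA forces the arrays to 1 distribution (array medians 4.95 to 4.98) and compresses differences of dim probe sets, so a shift shared by most genes cannot be seen. Arrays give no read depth, and their number limits the precision.

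Of 45101 probe sets 64 controls were left out, and of the other 45037, 34945 had 1 gene in the platform annotation, 932 had several and 9160 were not listed. Probe sets with several genes or none were not named, and some list genes were not analysed here. limma 3.58.1 in R 4.3.3 (lmFit and eBayes, no trend or robust option) was fitted to all probe sets with genotype and recorded sex as terms, with Benjamini-Hochberg adjustment over all 45037. The sex term was kept since females made up 3 of 4 mutants but 1 of 4 controls. A gene was represented by its brightest single-gene probe set. The script was tested on simulated data. The labels' mouse numbers name separate animals. RNA quality was compared by two-sided exact permutation over 70 assignments.

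The members and lists were chosen with earlier results of these data known. Named genes were the members, up to 3 genes a direction with the lowest adjusted p on each pathway list, a set named whatever its values (Hspa5, Hsp90b1, Calr, Dnajb9, Edem1, Syvn1, Atf3, Chac1, Asns, Ppp1r15a, Atf6b, Mbtps1, Cisd2), the 5 genes nearest to Wfs1, and 8 markers. Ssr1, Srprb, Nfyb and Nucb1 were added after their values were seen. Alternatives were a fit without sex, other priors, normalizations, filters, array weights, no moderation, a floor at 5, per-gene values and each mouse left out.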

Additional observations from a re-analysis of the deposited data

Results flagged for a closer look

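A mouse was marked when it lay far from the other 3 of its group by Dixon's test. Of 154 groups of 4 tested 11 were marked (7.14%), where chance marks about 1 in 20, and 5 of the 11 were wild-type mouse 170. Of the 60 groups of the member probe sets 3 were marked.

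On the brightest Atf4 probe set the male mutant 191 lay at 9.47 against 9.65 to 9.66 in the female mutants. On the same probe set the female wild-type mouse 161 lay at 9.47 against 9.24 to 9.25 in the male wild-type mice. Both marked Atf4 values belong to the mouse whose sex differs from the rest of its group. On 1 of the 5 Sel1l probe sets wild-type mouse 170 lay at 4.86 against 6.07 to 6.24.

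Mouse 170 also lay at 10.63 for Vcp against 10.78 to 10.81, and at 4.32 for Atf3 against 4.02 to 4.07, all dim values. Its 3' minus 5' log2 difference was 1.37 for Gapdh against 0.32 to 0.34, and 2.65 for beta-actin against 1.36 to 1.43, in the remaining controls. Wild-type mouse 161 lay at 9.48 for Dnajb9 against 9.66 to 9.69. Mutant 191 lay at 10.65 for Drd1 against 10.33 to 10.35, while every wild-type mouse was higher still. For Aif1 mutant 141 lay at 6.42 against 6.28 to 6.30, and wild-type mouse 180 at 6.37 against 6.71 to 6.76.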

How the results depend on the processing

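The fall of Wfs1 kept its direction in all 20 alternatives and its call in 14. Without moderation it was lost (adjusted p = 0.158), as it was without mouse 141, 154, 161, 191 or 200. The count of called member probe sets, 1, became 2 without a sex term and 2 with a floor at 5, in both by adding Atf4 (adjusted p = 0.0490 and 0.0321), and 3 without a sex term and without either mouse 161 or mouse 191. Without mouse 191 those 3 were the brightest probe sets of Wfs1, Atf4 and Herpud1. Without mouse 161 they were the brightest of Wfs1 and Atf4 and a probe set that was not the brightest of its gene. Leaving out 1 mouse with the sex term gave a count of 0 to 1. Atf4 was called in 5 of the 20 alternatives, among them the fit without moderation (adjusted p = 0.0073). Its SE in that fit was 0.011, and with its probe sets averaged Atf4 was not called (adjusted p = 0.438).

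Leaving out 1 mouse gave 2 to 23 pathway list genes called (24 with all mice) and 16 to 26 marker list genes called (27 with all mice). The 3' minus 5' difference ran from -0.31 to 0.0437 for Gapdh, the upper end without mouse 170, and from -0.44 to -0.01 for beta-actin. The interaction with sex was called for 0 members under every alternative run. No called value changed sign. Of 534 recomputed member values 40 had another sign than with the main settings, none of them called on either side, on 13 probe sets whose main log2 difference was at most 0.21 in size. No paired analysis was possible because the groups share no mouse number. With 1 male mutant and 1 female wild-type mouse, genotype and sex are separated by few animals. Dim probe sets limit Trib3, Atf3, Uggt2, Ryr1, the dim ERSE genes named above and 8 member probe sets that were under 5 in every mouse.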
